A study of Homo sapiens with 18 samples.

Results

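The 42 genes described here encode nucleolar ribosome biogenesis factors, and all 42 were present among the 58050 gene identifiers measured and among the 15228 genes tested. They were chosen by name as one module, with the measured fall of BOP1 in parental cells under guide 395 as the value to set them against. The parental comparison is therefore given as a description, and nothing is read from its calls or p-values. Expression was read from 3' ends of polyadenylated RNA in KNS-42, an established glioma cell line with added Cas9 nuclease, on day 7 after lentiviral delivery of a guide RNA. Parental cells carried no DDX3 transgene, DDX3Xoe cells overexpressed a codon-optimised DDX3X, and DDX3Yoe cells overexpressed a codon-optimised DDX3Y. Each kind of cell received guide 395, aimed at the endogenous DDX3X gene, or the control guide AAVS1, which gave 6 groups of 3 libraries, 18 in all. The design asks what loss of the endogenous gene does in parental cells and whether either transgene changes that. The sources used here give neither the promoter of the transgenes nor whether a line is 1 clone. Nor do they tell separate cultures from repeat libraries, so p-values measure the spread between these libraries, which may be partly technical.

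Ribosomes are assembled in the nucleolus around ribosomal RNA. RNA polymerase I copies the ribosomal DNA into a long precursor, small nucleolar ribonucleoproteins (snoRNPs) guide its chemical modification and cleavage, and separate sets of assembly factors build the small and the large subunit. BOP1, PES1 and WDR12 together form the PeBoW complex, which is needed to process the precursor into the RNAs of the large subunit. Many genes of this programme are known targets of MYC, and growing cells are known to need it at a high level.

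Depth was 5.67 M to 13.2 M reads per library (M, 1e6; median 8.85 M), and reads of the 42 genes made up 0.315% to 0.496% of each library. Of the glioma and neural markers, SOX2, VIM, GFAP, NES, CD44 and POU3F2 were present in all 18 libraries, OLIG2 and S100B were at 0 in all 18, and NCAM1 was at 0 in 14. DDX3X, the targeted gene, held 844 to 953 normalised reads with guide 395 in parental cells against 1729 to 1923 with AAVS1. In DDX3Xoe cells the replicate 1 libraries went against their guide labels, with 668 normalised reads in the library labelled AAVS1 and 1416 in the library labelled 395. The other 4 DDX3Xoe libraries held 1504 and 1162 with AAVS1 and 716 and 578 with guide 395. DDX3Xoe log2 fold changes are therefore given from all libraries and again with both of these left out, which is written as without replicate 1. Of the 42, 31 kept their sign in DDX3Xoe cells when they were left out and 11 changed it. In RNA from whole cultures, fewer cells of a kind and less RNA per cell cannot be told apart.

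Sequence windows around the gene starts show one feature that part of the group shared. RefSeq windows on GRCh38.p14, from 250 bases before to 50 bases after the start, were found for 36 of the 42 genes. None was found for BOP1, NOP58, NOLC1, RRP12, RRP1B and RRS1, so these genes were not searched. The letters CACGTG, the E-box core that MYC and MAX are known to bind and which read alike on both strands, occurred in 14 of the 36 (38.9%), in 26 of 97 (26.8%) windows of other ribosome biogenesis genes, in 9.98% of windows of all genes tested and in 7.43% of all windows. In 9 of the 36 (25%) the letters lay within the 50 bases after the start, against 14.4% of the other ribosome biogenesis genes and 1.13% of all genes tested. The letters CCGGAA, searched on both strands and read as an ETS family core, occurred in 18 of the 36 (50%), in 54.6% of the other ribosome biogenesis genes and in 29.4% of all genes tested, and the spelling of these 2 motifs allows no overlap between them. Printed 5′ to 3′ on the gene's own strand with CACGTG in capitals are the 30 bases around the E-box of the 5 genes described in full that carry one. The windows lie at chr19:39846356-39846385 on the minus strand (FBL), chr22:30591880-30591909 on the minus strand (PES1), chr2:28894658-28894687 on the plus strand (WDR43), chr4:2963374-2963403 on the minus strand (NOP14) and chr1:19251807-19251836 on the plus strand (MRTO4).
FBL: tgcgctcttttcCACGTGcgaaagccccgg
PES1: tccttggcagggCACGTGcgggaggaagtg
WDR43: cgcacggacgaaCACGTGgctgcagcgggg
NOP14: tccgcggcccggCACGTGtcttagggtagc
MRTO4: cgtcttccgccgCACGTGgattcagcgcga
A match is a string of letters and not a measured binding site. In parental cells the 14 genes with CACGTG had a median log2 fold change of -0.12 and the 22 without it -0.079, which are given without a test. BOP1, which had no window, is in neither set.

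BOP1, the subunit that joins PES1 and WDR12 in PeBoW, was the 1 gene among the 42 with a fall of more than 1 log2 unit in parental cells with guide 395. A change of at least 1 log2 unit either way was seen in 2.38% of the 42, beside 15.9% of all genes tested. The other 41 lay between -0.90 (FBL) and 0.79 (UBTF). The median over all 42 was -0.094, with 28 genes below 0 and 14 above, beside a median of 0.017 for the 15228 genes tested. The change of BOP1 thus had no counterpart of its size among the other 41, its PeBoW partners included. BOP1 was also the 1 member called in this comparison (limma, adjusted p under 0.05), where 1.78% of all genes were called, 0.801% lower and 0.978% higher. It was again the 1 member called with the replicate number as a block, where 4.45% of all genes were called. Without a block the call was lost when parental AAVS1 replicate 2 or 3, or parental 395 replicate 1 or 2, was left out. Since the comparison fixed the reference, nothing is read from the call.

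BOP1 (ENSG00000261236) lies on the minus strand of chromosome 8, from 144262102 to 144291370 on GRCh38. In parental cells it held 191, 407 and 305 normalised reads in AAVS1 replicates 1, 2 and 3 and 66.8, 76.7 and 168 with guide 395. Every guide 395 library was below every control library, with means of 301 ± 108 and 104 ± 55.7 (SD, n = 3) and a log2 fold change of -1.58 with a standard error of 0.40. The gap was narrow, 191 in the lowest control against 168 in the highest guide 395 library, and the differences between same-numbered libraries were -1.50, -2.39 and -0.86 on the log2 scale. SCX, a short gene on the other strand inside BOP1, held 0 to 50.5 normalised reads over the 18 libraries, with 28.2, 0 and 13.4 in the parental controls and 40.4, 44.3 and 26.1 with guide 395, so its reads did not fall with those of BOP1.

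In DDX3Xoe cells BOP1 held 243, 487 and 314 normalised reads in the libraries labelled AAVS1 and 229, 199 and 310.0 in those labelled 395. In DDX3Yoe cells it held 295, 320.0 and 365 with AAVS1 and 365, 179 and 151 with guide 395. The guide groups overlapped in both. Between same-numbered libraries 1, 2 and 3 the log2 differences, by label, were -0.084, -1.29 and -0.018 in DDX3Xoe and 0.31, -0.83 and -1.27 in DDX3Yoe. The log2 fold changes were -0.46 and -0.60, each with a standard error of 0.40, and neither passed the test (limma adjusted p = 1 in both). Their 95% intervals, -1.30 to 0.37 and -1.43 to 0.23, include 0 and stop short of the parental estimate of -1.58. Both overlap the 95% interval of that estimate, -2.41 to -0.75. Without replicate 1 the DDX3Xoe value was -0.65 with an interval of -1.68 to 0.37, which includes both 0 and -1.58. As a description, the guide effect on BOP1 was 1.12 log2 units higher in DDX3Xoe than in parental cells (0.93 without those libraries) and 0.98 higher in DDX3Yoe, both against the same parental libraries.

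PES1, the BRCT-domain subunit of PeBoW, held 874, 2769.9 and 1509 normalised reads in the parental controls and 954, 1394 and 1411 with guide 395. Control replicate 2 was the high library and the groups overlapped, at a log2 fold change of -0.32 (standard error 0.41). The DDX3Xoe values were 855, 2588 and 1802 under AAVS1 and 999, 836 and 1787 under guide 395, and the DDX3Yoe values 1299, 1481 and 1449 and 2086, 1751 and 1214, again with overlap. Its log2 fold change was -0.47 in DDX3Xoe, the lowest of the 42 there, and 0.22 in DDX3Yoe. Control replicate 2 was again the high DDX3Xoe library for PES1, and without replicate 1 its value was -0.82.

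WDR12, the WD-repeat subunit of PeBoW, was steadier. Parental libraries held 342, 289 and 259 normalised reads with AAVS1 and 210.1, 324 and 269 with guide 395, with overlap and a log2 fold change of -0.16. It was 0.12 in DDX3Xoe (0.13 without replicate 1) and -0.12 in DDX3Yoe, with 231 to 410.3 normalised reads across those 12 libraries. Of the 3 subunits, BOP1 alone had guide groups without overlap in parental cells. Within a library, the log2 ratio of BOP1 to PES1 was -2.76 to -2.19 in the parental controls and -4.17 to -3.06 with guide 395, and in the other 4 groups it ranged from -3.28 to -1.81. The log2 ratio of BOP1 to WDR12 overlapped between the guides in parental cells, with -0.84, 0.49 and 0.23 in the controls and -1.64, -2.06 and -0.68 with guide 395, and ranged from -0.98 to 0.58 in the other 4 groups.

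**Figure D1:**
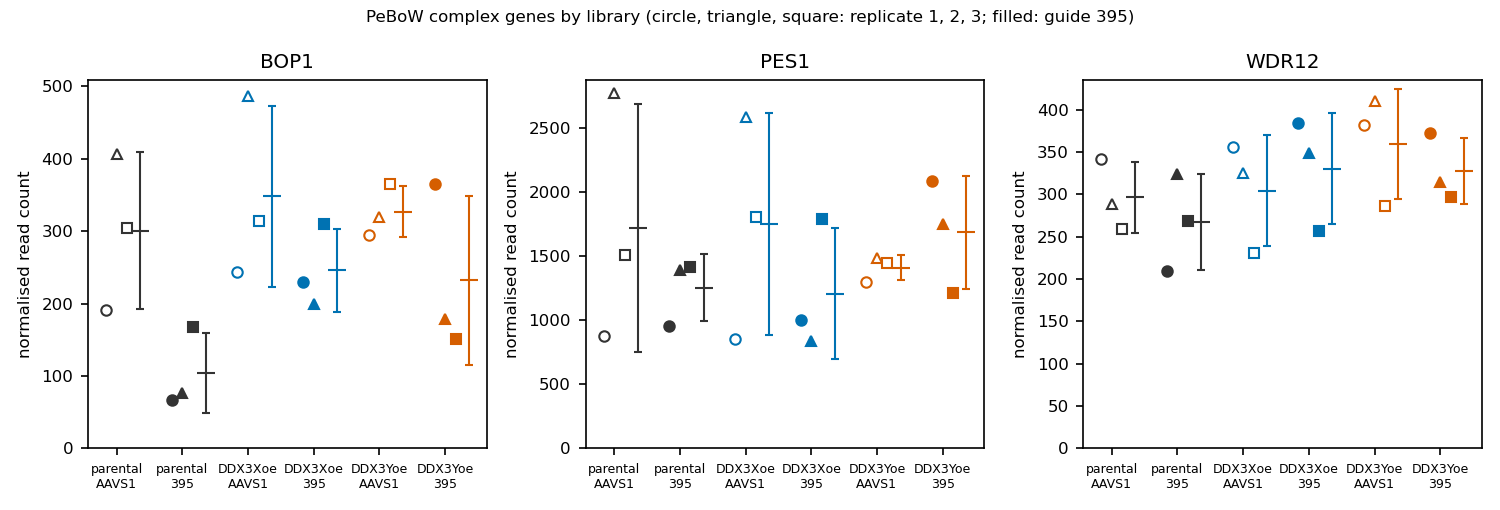
Normalised read count of BOP1, PES1 and WDR12 in each of the 18 libraries, by group; open symbols are AAVS1, filled symbols guide 395, circle, triangle and square are replicates 1, 2 and 3, and the bar beside each group is the mean with its SD (n = 3). For BOP1 the 3 parental guide 395 libraries (66.8 to 168) lie under the 3 parental controls (191 to 407), while every other pair of guide groups in the 3 panels overlaps.

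The polymerase I genes went in different directions in parental cells. UBTF, the factor that binds the ribosomal DNA promoter and keeps it open, held 502, 476 and 417 normalised reads with AAVS1 and 642, 780.1 and 1030.5 with guide 395. All 3 guide 395 libraries were above all 3 controls, and the log2 fold change of 0.79 (standard error 0.26) was the highest of the 42. In DDX3Xoe cells UBTF held 577, 688 and 398 and 587, 726 and 532, and in DDX3Yoe cells 642, 719 and 527 and 853, 734 and 516, with AAVS1 and guide 395 in that order. The groups overlapped in both lines, with log2 fold changes of 0.17 (0.25 without replicate 1) and 0.14. Under AAVS1 alone, UBTF was already above the parental libraries in all 3 DDX3Yoe libraries (log2 difference 0.43, limma adjusted p = 0.999).

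POLR1A, the catalytic largest subunit of RNA polymerase I, held 372, 387 and 289 normalised reads in parental controls and 242, 218 and 358 with guide 395, an overlap with a log2 fold change of -0.38. Its values were 411, 274 and 306 against 289, 353 and 292 in DDX3Xoe and 346, 333 and 317 against 369, 289 and 263 in DDX3Yoe. Guide groups overlapped in both, at -0.068 and -0.13, and the DDX3Xoe value turned to 0.15 without replicate 1. The other catalytic-side subunit, POLR1B, had -0.088 in parental cells, and POLR1C, which polymerases I and III share, -0.15.

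RRN3, the initiation factor that brings the polymerase to its promoter, had the second-widest interval of the 42 genes. Replicate 1 was its high library in 3 groups, with 507 in parental AAVS1, 788 in parental 395 and 706 in the DDX3Xoe library labelled AAVS1, whereas the other 15 libraries held 139.6 to 369 normalised reads. Its log2 fold changes were 0.76 in parental, -0.39 in DDX3Xoe and 0.066 in DDX3Yoe cells. The DDX3Xoe value turned to 0.36 without replicate 1. RRN3 and NPM1 have near-identical pseudogene copies, so reads may be shared with those copies.

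All 3 box C/D proteins, which build the snoRNPs that methylate ribosomal RNA, had parental values below 0, and none of the guide groups separated. FBL, fibrillarin, the methyltransferase, held 2655, 7065 and 4089.9 normalised reads with AAVS1 and 1540.2, 2301 and 3330.2 with guide 395 in parental cells, which is -0.90 on the log2 scale (standard error 0.44). It is the 1 gene other than BOP1 whose 95% interval reached the parental value of BOP1. In DDX3Xoe cells FBL held 2763, 8652 and 4351 and 3764, 2778 and 6076, and in DDX3Yoe cells 4626, 5763 and 4748 and 7435, 4189 and 3550.2. These groups overlapped, with values of -0.24 (-0.58 without replicate 1) and -0.065.

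NOP58, a core protein of the same particle, held 1806, 2023 and 1262 normalised reads with AAVS1 and 1258, 1472 and 1057 with guide 395 in parental cells (-0.41). It held 1568, 1430.4 and 1329 and 1748, 1385 and 1166 in DDX3Xoe and 1434, 1506 and 1107 and 1549.9, 1624 and 1179.7 in DDX3Yoe. The log2 fold changes in those lines were -0.026 (-0.12 without replicate 1) and 0.10, with overlap in each. NOP56, its partner, was at -0.15, 0.11 and -0.13 in parental, DDX3Xoe and DDX3Yoe cells, and its DDX3Xoe value turned to -0.30 without replicate 1.

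Genes of the box H/ACA particle, which converts uridine to pseudouridine, were split. DKC1, dyskerin, the pseudouridine synthase itself, held 1557, 3185 and 2659 normalised reads with AAVS1 and 1218, 1985 and 2451 with guide 395 in parental cells (-0.38). NHP2, an RNA-binding partner, held 257, 677 and 319 and 287, 282 and 249 (-0.48), where control replicate 2 stood well above the rest. GAR1, also a core protein, went the other way, with 345, 293 and 262 and 549, 372 and 314 (0.42). All 3 overlapped between guides.

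In DDX3Xoe cells DKC1 held 1577, 4435 and 2559 normalised reads in libraries labelled AAVS1 and 2455, 1913 and 3123 in those labelled 395, and in DDX3Yoe cells 2505, 2517 and 2694 and 3108, 2288 and 2198. For NHP2 the DDX3Xoe values were 365, 400.5 and 351 against 362, 376 and 371 and the DDX3Yoe values 352, 344 and 391 against 404, 336 and 258. GAR1 held 395, 179 and 249 against 247, 446 and 215 in DDX3Xoe and 285, 321 and 230.4 against 252, 353 and 239.9 in DDX3Yoe. Guide groups overlapped in every case, with log2 fold changes from -0.14 (NHP2, DDX3Yoe) to 0.14 (GAR1, DDX3Xoe). Without replicate 1 the DDX3Xoe values of DKC1 and GAR1 were larger, at -0.46 and 0.55, and that of NHP2 was -0.0053. NOP10, the smallest protein of the particle, had the widest interval of the 42, 1.35 log2 units to either side, and NOLC1, the Nopp140 chaperone of snoRNPs, stayed between -0.053 and 0.0038 in the 3 kinds of cell. Without replicate 1 the DDX3Xoe values of NOP10 and NOLC1 went from 0.32 to 0.88 and from 0.0014 to 0.073.

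The 12 small subunit factors had parental values from -0.27 (BYSL) to 0.33 (NOP14), with 9 below 0. WDR43, a subunit of the complex that links polymerase I transcription to early processing, held 982, 1952 and 2097 normalised reads with AAVS1 and 879, 1760.0 and 1804 with guide 395 in parental cells (-0.18). NOP14, a component of the early small subunit particle, held 619.7, 718 and 996 and 898, 999.5 and 987 (0.33). UTP15, from the same early complex as WDR43, held 156, 136 and 120.5 and 195, 174 and 135 (0.27). None of the 12 separated the guides in parental cells.

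UTP15 and NOC4L did separate the guides in DDX3Xoe cells. UTP15 held 205, 158 and 154 normalised reads in libraries labelled AAVS1 and 129, 97.2 and 148 in those labelled 395, a log2 fold change of -0.47 (-0.38 without replicate 1). NOC4L, a partner of NOP14, held 164, 144 and 147 and 143, 143 and 136, a log2 fold change of -0.10 (-0.060 without replicate 1). Over all genes 2.04% were lower without overlap there, and neither gene passed the test (limma adjusted p = 1). In DDX3Yoe cells UTP15 held 131, 119 and 126 and 166, 106 and 142, with overlap.

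WDR43 in DDX3Xoe cells held 1028, 2276 and 2159.7 normalised reads in libraries labelled AAVS1 and 1914, 1256 and 2419 in those labelled 395, and in DDX3Yoe cells 1829.7, 1966 and 2328 and 2093, 1607 and 1894. NOP14 held 759, 829.7 and 969 against 997, 796 and 1028 in DDX3Xoe and 1055, 869.6 and 821 against 1035, 884 and 894 in DDX3Yoe. Both overlapped between guides, with log2 fold changes between -0.13 and 0.14. Without replicate 1 the DDX3Xoe value of WDR43 turned from 0.067 to -0.35, and that of NOP14 was 0.013. For the small subunit factors as a group the median was -0.038 in DDX3Xoe (-0.091 without replicate 1) and -0.067 in DDX3Yoe cells.

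The 12 large subunit factors were evenly split in parental cells, with 6 above and 6 below 0 and a range of -0.44 (PPAN) to 0.52 (RRP1B). RRP1B, a nucleolar protein that also works as a partner of phosphatase 1, held 480.0, 369.6 and 396 normalised reads with AAVS1 and 571, 583 and 626 with guide 395 in parental cells, without overlap. MRTO4, which occupies the site of the ribosomal stalk on the large subunit precursor, held 992, 1079 and 971 and 738, 866 and 835 (-0.32), also without overlap and lower. NOP2, a methyltransferase of the large subunit RNA, was likewise higher without overlap (0.27), and EBNA1BP2 lower (-0.26). In all, 3 members were higher (UBTF, NOP2 and RRP1B) and 3 lower (BOP1, EBNA1BP2 and MRTO4) without overlap, beside 10.7% of all genes tested that were higher and 9.86% that were lower in this way.

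In DDX3Xoe cells RRP1B held 609.7, 455 and 352 normalised reads in libraries labelled AAVS1 and 489.8, 582 and 349 in those labelled 395, and in DDX3Yoe cells 464, 448 and 312 and 489, 486 and 456. MRTO4 held 963, 966 and 953 against 848, 702 and 1066 in DDX3Xoe and 936, 755 and 1152 against 934, 781 and 851 in DDX3Yoe, with overlap in both lines for each gene. The DDX3Xoe log2 fold changes were 0.0095 for RRP1B (0.17 without replicate 1) and -0.16 for MRTO4 (-0.15). NOC3L was higher without overlap in DDX3Xoe, where 1.83% of all genes were, at 199, 252 and 292 and 300.3, 350.1 and 328 (0.41, or 0.32 without replicate 1). EBNA1BP2 was higher without overlap in DDX3Yoe, where 3.80% of all genes were, at 529, 610.3 and 588 and 625, 645 and 704 (0.19), opposite in sign to its parental value, and none of the 42 was lower without overlap there (3.69% of all genes). None of these passed the test (limma adjusted p = 1).

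NCL and NPM1, the abundant nucleolar proteins nucleolin and nucleophosmin, were both slightly below 0 in parental cells. NCL had the highest counts of the 42, with 6975, 11999.9 and 9426 normalised reads with AAVS1 and 5849, 8822 and 7995 with guide 395 (-0.31), and NPM1 held 1691, 3184 and 1876 and 1873, 1894 and 1680.2 (-0.25). Both overlapped between guides. In DDX3Xoe cells NCL held 6827, 10567 and 8541 and 10976, 8235 and 9615 and in DDX3Yoe cells 10848, 9208 and 8718 and 11914, 8175 and 7873, and NPM1 held 2081, 1614 and 1939.9 and 2163, 1678 and 1866, then 1973, 1743 and 1579 and 1912, 1652 and 1568. Their log2 fold changes in those lines lay between -0.061 and 0.17, inside their standard errors of 0.23 and 0.27. Without replicate 1 the DDX3Xoe value of NCL turned from 0.17 to -0.094, and that of NPM1 was 0.018 with all libraries and nearer 0 without.

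**Figure D2:**
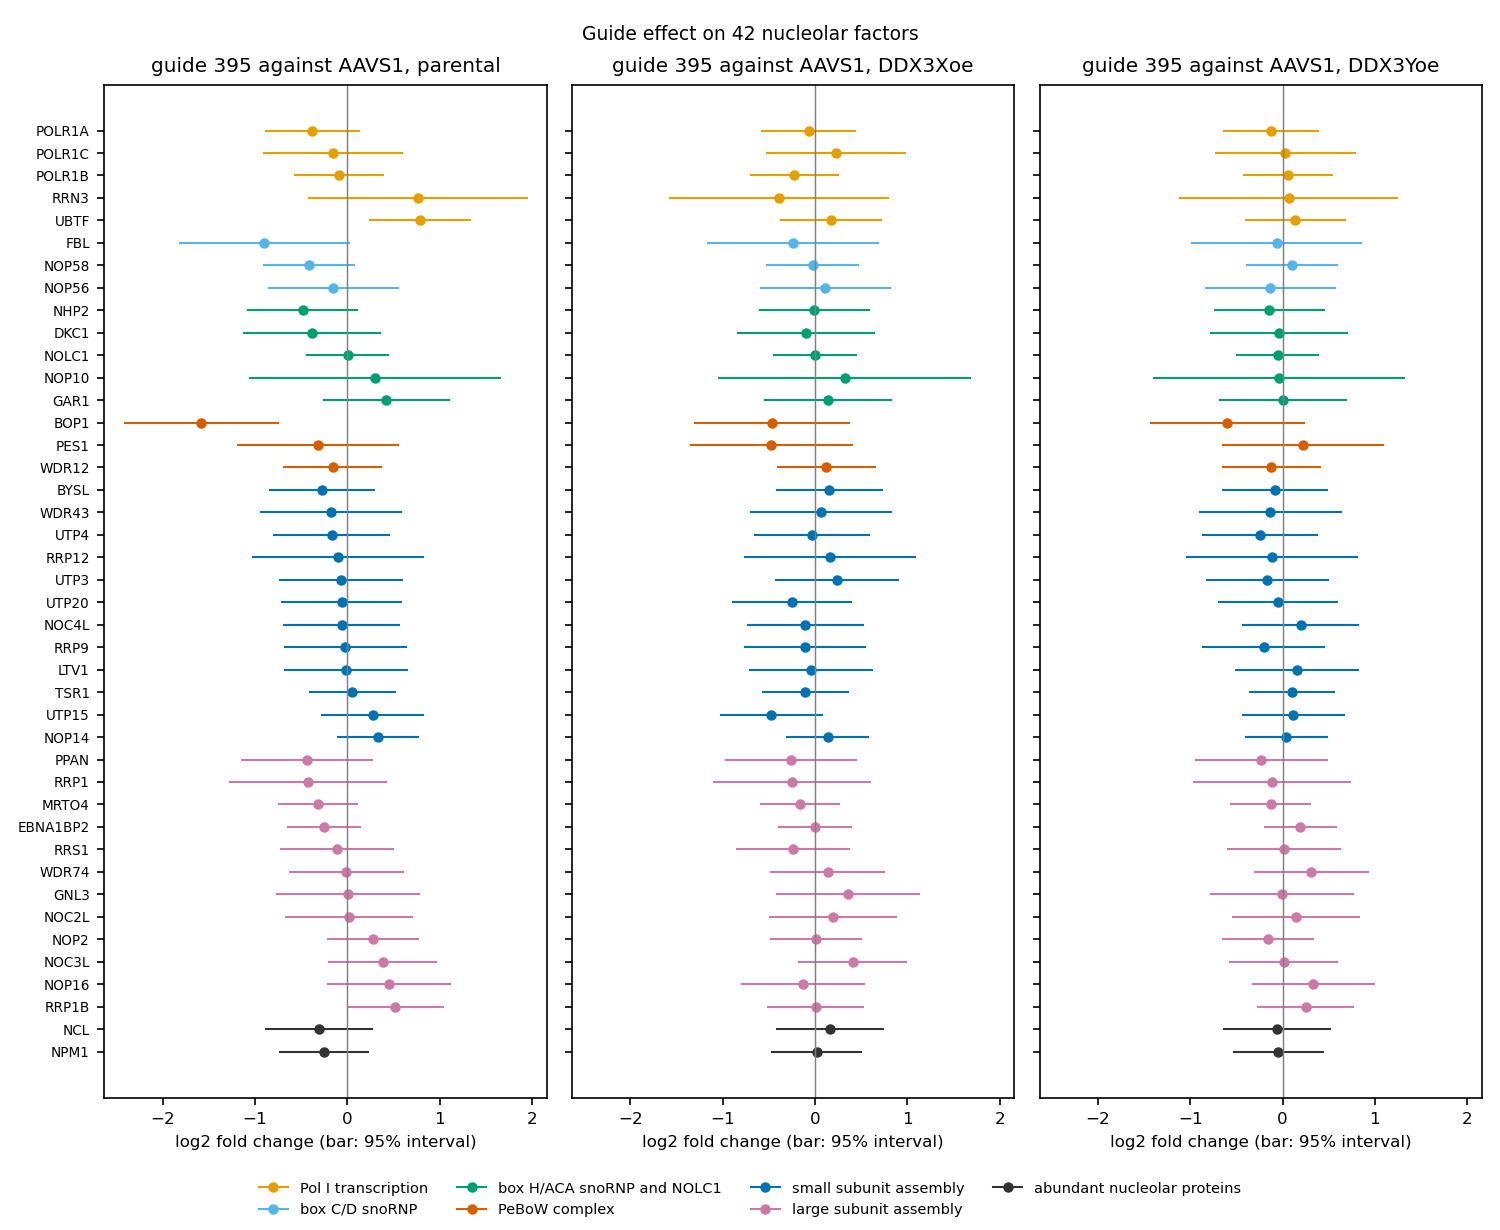
Log2 fold change of guide 395 against AAVS1 for each of the 42 genes (rows, coloured by role) in parental, DDX3Xoe and DDX3Yoe cells; points are estimates and bars their 95% intervals from limma over 18 libraries. In parental cells BOP1, the reference, is at -1.58 and the other 41 genes are between -0.90 and 0.79. In DDX3Xoe the 42 lie between -0.47 and 0.41 (-0.82 to 0.88 without replicate 1, not plotted) and in DDX3Yoe between -0.60 and 0.33.

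In the overexpressing lines no shift of the 42 genes as a group was seen. In DDX3Xoe cells 21 were below and 21 above 0, at a median of -0.0034 on the log2 scale, and -0.016 for all genes tested. In DDX3Yoe cells 23 were below and 19 above, with a median of -0.037 and -0.0021 for all genes. None of the 42 was called in either line (limma with Benjamini-Hochberg adjustment), where 0% of all genes were called, and none had an unadjusted p under 0.05, as 2.07% and 1.00% of all genes did. The lowest unadjusted limma p was 0.0881 (UTP15) in DDX3Xoe and 0.148 (BOP1) in DDX3Yoe. Without replicate 1, 24 were below and 18 above 0 in DDX3Xoe, with a median of -0.0074 and a wider range, from -0.82 (PES1) to 0.88 (NOP10). None of the 42 was called or had an unadjusted limma p under 0.05 there, and the lowest was 0.0851 (PES1). Of the 15092 genes tested there, 0 were called and 535 had an unadjusted p under 0.05.

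The 95% intervals were 0.39 (EBNA1BP2) to 1.35 (NOP10) log2 units to either side, with a median of 0.62. They are not adjusted for the number of genes, so changes larger than these could also go uncalled. Of the 41 genes other than BOP1, 33 in DDX3Xoe and 37 in DDX3Yoe had an interval wholly within 1 log2 unit of 0, and with all libraries none of the 41 intervals reached -1.58 in either line. Without replicate 1, 24 of the 41 in DDX3Xoe were within 1 log2 unit and 3, FBL, PES1 and RRP1, reached -1.58. In parental cells 28 of the 41 were within 1 log2 unit and 1, FBL, reached -1.58. The -1.58 is itself an estimate, with a 95% interval of -2.41 to -0.75.

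The differences between the guide effects of the lines share the parental libraries with the reference comparison and are given as values. Between DDX3Xoe and parental cells the median over the 42 was 0.15, from -1.16 (RRN3) to 1.12 (BOP1), and 0.023 without replicate 1, where RRN3 was at -0.41 and the range was -0.65 (UTP15) to 0.93 (BOP1). Between DDX3Yoe and parental cells it was 0.086, from -0.70 (RRN3) to 0.98 (BOP1). No member was called by limma in either, beside 0.0460% and 0% of all genes, and none had an unadjusted p under 0.05, beside 8.14% and 4.84%. DDX3Yoe and DDX3Xoe, which share no library, differed by a median of -0.054 (0.032 without replicate 1) with none of the 42 called (0% of all genes; limma) or at an unadjusted p under 0.05 (1.49%), and BOP1 differed by -0.13 (0.056 without replicate 1).

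Under the control guide no member was called between the lines. The median log2 difference of the 42 was 0.024 for DDX3Xoe against parental, -0.052 for DDX3Yoe against parental and -0.022 for DDX3Yoe against DDX3Xoe (limma; 0% of all genes called in each). Without replicate 1 the DDX3Xoe against parental median was 0.046 and the DDX3Yoe against DDX3Xoe median -0.048, with 4 and 0 of the 42 at an unadjusted limma p under 0.05 and none called. Over all genes tested without replicate 1, 705 and 188 of 15092 had an unadjusted p under 0.05 and 0 were called. With all libraries there were 0 of the 42 at an unadjusted p under 0.05 in each, beside 0.985%, 2.64% and 0.893% of all genes. In DDX3Yoe against parental, POLR1B, LTV1, NOP16, RRS1 and EBNA1BP2 were lower and UBTF higher without overlap, 5 and 1 of 42 beside 3.78% and 4.98% of all genes. RRS1, which helps load the 5S particle, held 236, 232 and 226 normalised reads in the parental controls and 178, 133 and 183 in the DDX3Yoe controls (-0.50, limma adjusted p = 0.999). LTV1, a late small subunit factor, held 1027, 775 and 569 and 520.2, 472 and 476 (-0.65, the lowest value of the 42, limma adjusted p = 0.999). In DDX3Xoe against parental, NOC4L was higher and MRTO4 lower without overlap (1.55% and 1.58% of all genes), and in DDX3Yoe against DDX3Xoe NOC3L was higher and UTP15, NOC4L and TSR1 lower (2.02% and 2.19%). BOP1 itself differed by 0.22, 0.18 and -0.037 in these 3 comparisons (0.44 and -0.26 in the 2 with DDX3Xoe, without replicate 1), and its 9 control values spanned 191 to 487 normalised reads.

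Across libraries the group did not move as one. Likeness was taken as the Pearson correlation of log2 values with BOP1 over 18 libraries. The other 41 genes had a median of 0.20, with 24 positive. The 15227 genes tested other than BOP1 had a median of -0.013, with 7482 positive, and ranged from -0.92 to 0.94. The points share 6 groups, their library depth and, in part, replicate numbers, so these are descriptions. FBL (0.88), PPAN, a large subunit factor (0.79), and DKC1 (0.78) were most like BOP1, and the values over deviations from the group means were 0.91, 0.71 and 0.86. Within the 9 control libraries alone they were 0.94, 0.79 and 0.96, and without the 2 libraries farthest from the median of BOP1 over all groups 0.82, 0.57 and 0.73. Least like BOP1 were GAR1 (-0.71), RRN3 (-0.69) and RRP1B (-0.62).

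PES1 and WDR12 differed in this respect. PES1 had 0.56 over 18 libraries and 0.79 within groups, and WDR12 had 0.27 and -0.049. FBL and DKC1 thus followed BOP1 among replicates of 1 group as well as between groups, for instance at their highest in the DDX3Xoe library labelled AAVS1 replicate 2 (BOP1 487, FBL 8652 and DKC1 4435 normalised reads). PPAN overlaps the PPAN-P2RY11 readthrough gene on the same strand, so its reads may be shared.

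**Figure D3:**
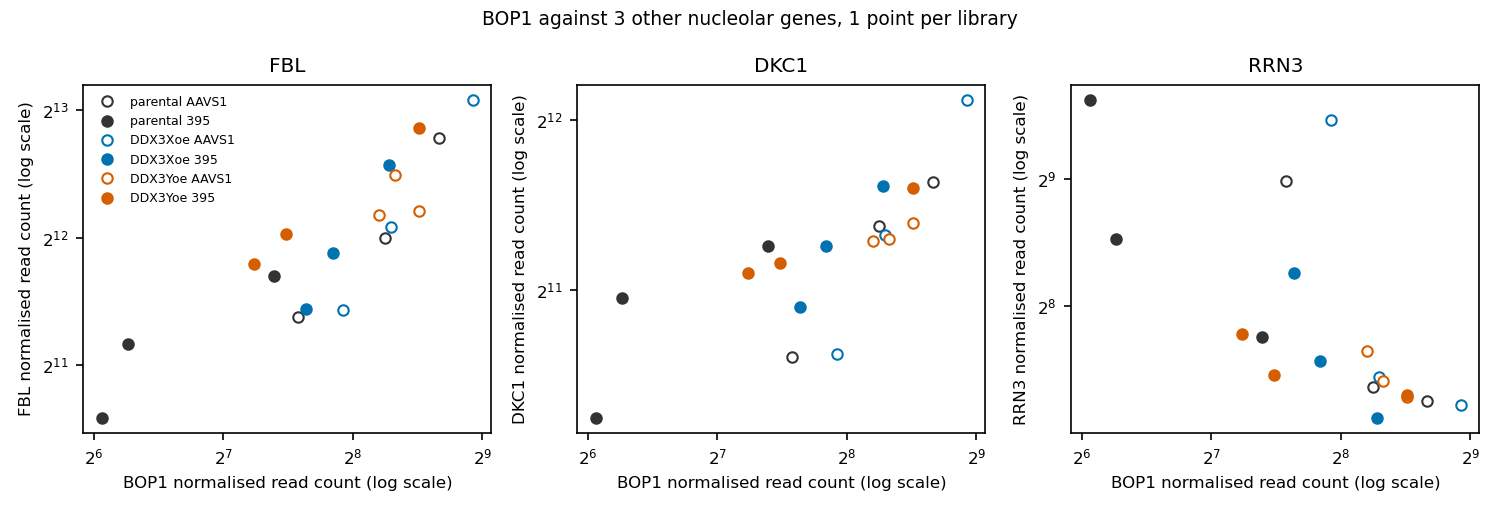
Normalised read counts of FBL, DKC1 and RRN3 against BOP1, 1 point per library on log axes, coloured by cell line and filled for guide 395. FBL and DKC1 rise with BOP1 over the 18 libraries (r of 0.88 and 0.78) and RRN3 falls (r of -0.69). The lowest BOP1 values are those of parental guide 395 replicates 1 and 2 (66.8 and 76.7), then DDX3Yoe guide 395 replicate 3 (151). Parental guide 395 replicate 3 comes next (168).

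Technical measures moved with BOP1 in part. Its correlation with the mitochondrial share of reads was 0.50 over 18 libraries and 0.16 within groups, and the share itself was 11.3% to 16.5% in parental controls and 7.78% to 11.1% with guide 395. With the number of genes with a read it was -0.33 and -0.43, and with reads per library -0.13 and -0.26. The GC content of the last 500 bases of the longest GENCODE 29 transcript, a property looked at after these correlations were seen, was 60.8% for BOP1 and 60.8% for PES1, against medians of 44.5% for the 42 genes and 42.4% for all genes tested. Across the 41 other genes it correlated with likeness to BOP1 at 0.41 over all libraries and 0.46 within groups. The median deviation of the fifth of genes with the highest GC, minus that of the lowest, was -0.37, 0.49 and -0.098 in the parental controls and -0.24, -0.29 and -0.040 with guide 395, and over the 18 libraries it correlated with BOP1 at 0.49. The part of depth, mitochondrial share and GC content in the BOP1 values was not tested.

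**Figure D4:**
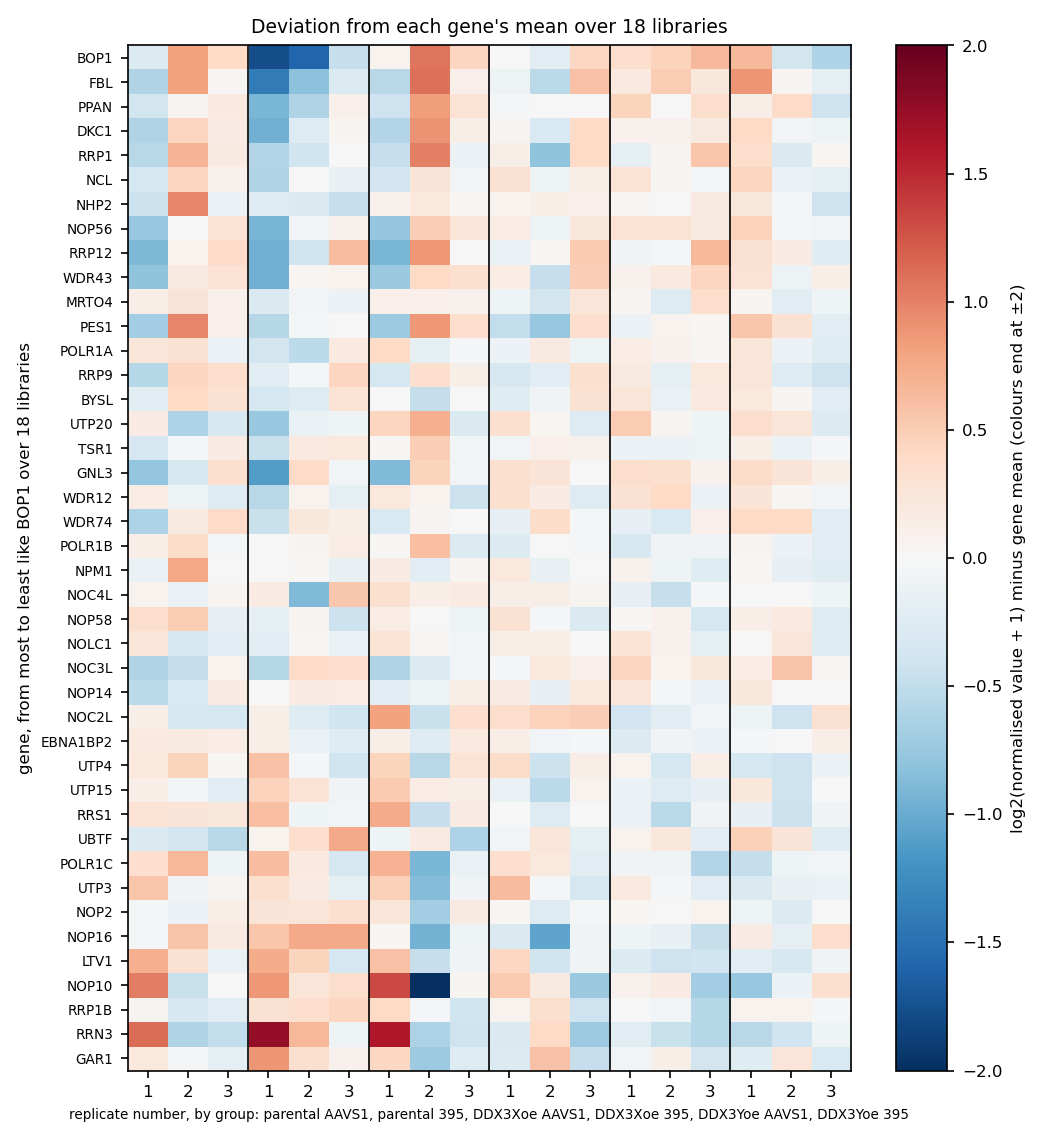
Deviation of each of the 42 genes (rows, from most to least like BOP1) from its own mean of log2(normalised value + 1), in 18 libraries ordered by group and replicate number; red is above and blue below the mean. The top rows, FBL, PPAN and DKC1, share the low parental guide 395 replicate 1 library and the high DDX3Xoe AAVS1 replicate 2 library with BOP1, and the bottom rows, such as RRN3 and GAR1, show the opposite.

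Further ribosome biogenesis genes, 112 in 4 lists of which 111 were tested, had a median of -0.080 in parental cells, with 58 below and 53 above 0. None of the 111 was called by limma, and 14 (12.6%) had an unadjusted p under 0.05, beside 16.9% of all genes. The 11 other polymerase I genes had a median of -0.048 (7 below, 4 above), the 40 tested small subunit factors -0.13 (22 below, 18 above), the 46 large subunit factors 0.061 (19 below, 27 above) and the 14 exosome genes, which trim precursor ends, -0.22 (10 below, 4 above). In DDX3Xoe and DDX3Yoe cells the medians over the 111 were -0.0060 (-0.086 without replicate 1, with 70 below and 41 above 0) and 0.0073, again with none called and 0 of them at an unadjusted p under 0.05 with all libraries (limma; 1 in DDX3Xoe without replicate 1). Over all genes, 2.07% and 1.00% were at such a p with all libraries, and 535 of 15092 in DDX3Xoe without replicate 1. These lists, like the 42, were chosen with results of these libraries known.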

How the data were processed

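RNA of KNS-42 cells was sequenced from 3' ends with the QuantSeq kit, per the labels' protocols, so counts do not grow with transcript length. The authors deposited a normalised signal (read counts divided by 1 size factor per library) for 58050 genes. The submitters' processing notes name the build GRCh38 and, without roles, featureCounts 1.5.1, RSEM 1.3.0, STAR 2.5.2b and limma. The strand setting is not given in the sources used here, so reads of overlapping genes on opposite strands may not be separable. Each column, divided by its smallest positive value, came out as whole reads (100% of values, tolerance 0.01), 5.67 M to 13.2 M per library, and these served edgeR 4.0.16 and DESeq2 1.42.0 as alternatives.

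The main test was limma 3.58.1 (R 4.3.3) on log2(normalised value + 1), fitted as 6 group means over 18 libraries (12 residual degrees of freedom, intensity trend), for genes with at least 10 in at least 3 libraries. Fold changes on this scale understate the change of genes with few reads. Calls were made at an adjusted p under 0.05 (Benjamini-Hochberg over all 15228 genes) in each of 9 comparisons. The code was tested on simulated data. Symbols and positions came from GENCODE 29, which held 57446 of the identifiers.

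The members, the other gene lists and the tests were chosen with earlier results of these data known. Values in every library are given for BOP1 and, in each role group, for the gene with the highest mean and the 2 genes with the smallest parental p (16 genes). Genes that separated 2 groups and RRN3, NOC4L, NOC3L, RRS1, LTV1 and WDR12 were named after their values were seen. Same-numbered parental libraries deviated together (correlations 0.57, 0.201 and 0.28), although the meaning of a number is not given. The main test did not pair libraries by number, and the replicate block was run only as an alternative. In DDX3Xoe (0.231, -0.028 and 0.30) and DDX3Yoe (0.075, 0.114 and 0.238) not all passed 0.1. Alternatives were other pseudocounts, filters, scalings, trends and moderation, fitting only the compared groups, a replicate block, and leaving libraries out.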

Additional observations from a re-analysis of the deposited data

How the results depend on the processing

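The number of the 42 genes called in parental cells, 1 (BOP1), was 0 with a pseudocount of 0.1, no filter, median-centring, no intensity trend, the compared groups alone and edgeR, and 0 to 1 when 1 library was left out. The BOP1 log2 fold change stayed below 0 in all 20 alternatives, from -1.99 to -1.33, and its limma, edgeR or DESeq2 adjusted p ranged from 0.0101 to 0.212. It passed in 10 of the 20, and in 2 of the 6 that leave out a parental library. Since this comparison fixed the reference, nothing is read from these counts or from the call. It was lost without parental AAVS1 replicate 2 (0.212) or 3 (0.0829) and without parental 395 replicate 1 (0.167) or 2 (0.152), by limma. With the replicate block, the adjusted p of BOP1 was 0.0313, the count of called members stayed at 1, and all genes called rose from 271 to 677. No other member was called in any of the 33 settings.

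The median guide effect of the 42 in DDX3Xoe minus parental cells was 0.15, fell to 0.0234 without both replicate 1 libraries labelled DDX3Xoe, and was -0.0195 to 0.1749 when 1 library was left out. With 1 library left out, the DDX3Yoe minus DDX3Xoe median was -0.102 to 0.0566 and the DDX3Xoe minus parental difference under AAVS1 was -0.1033 to 0.0689. Other medians moved by less than the spread between libraries of 1 group (SD 0.107). With 3 libraries a group, the median reach of the 95% intervals was 0.62 log2 units. These intervals are not adjusted for the number of genes, so a call needed a change larger than its interval reach. UBTF, at 0.79 in parental cells with a reach of 0.54, was not called (limma adjusted p = 0.115).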

Other observations

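Of 3 further lists, none had a gene called in any guide comparison (limma, adjusted p under 0.05). The 14 tested snoRNA host transcripts, whose introns carry the guide RNAs of the snoRNPs, had a median log2 fold change of 0.24 in parental cells, with 9 above and 5 below 0, and 0.046 and -0.0085 in DDX3Xoe and DDX3Yoe. The 9 MYC network genes had medians of 0.19, -0.15 and 0.065 in the same order, with 7, 3 and 7 above 0. In parental cells they ranged from -0.90 (MXD3) to 1.13 (MYC), and MYC was the lowest in DDX3Xoe cells (-1.37 with all libraries). The 10 p53 target genes, which are not particular to nucleolar stress, had medians of -0.19, -0.018 and -0.11, with 7, 5 and 8 below 0. At an unadjusted p under 0.05 there were 2, 0 and 1 genes of these lists in parental cells, beside 16.9% of all genes. Without both replicate 1 libraries labelled DDX3Xoe, the DDX3Xoe medians of the 3 lists were 0.23, -0.028 and -0.079.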
